A study of Mus musculus with 8 samples.

Results

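The genes described here encode 8 ATP-binding cassette (ABC) efflux transporters of mouse: Abca1, Abcg1, Abcg2, Abcb1a, Abcb1b, Abcc1, Abcc3 and Abcc4. They are 8 of the 55450 genes in the table. They were picked by name from these data after earlier results were known, so their differences between the lines are given as levels, fold changes and standard errors, with no test of their own. RAW264.7, a macrophage-like line of mouse origin, was the source of the total RNA in all 8 libraries. The shNS line expresses a non-silencing shRNA and the shDis3l2 line an shRNA against Dis3l2, an exoribonuclease that degrades uridylated RNA. Doxycycline (1 µg/mL) was given to both lines for 4 days in 3 libraries each and left out in 1 library each. Not stated in the labels are the promoter that drives the shRNA, whether a line is 1 clone or a pool, and whether replicates were separate cultures. A p-value therefore measures only the spread between these libraries, which may be technical.

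ABC transporters use the energy of ATP to move substrates across membranes. Abca1 and Abcg1 move cholesterol and phospholipid from macrophages to apolipoprotein A-I and to HDL, and their genes are classic targets of the liver X receptors (LXR), nuclear receptors that sense oxysterols. Abcg2 (breast cancer resistance protein) and the P-glycoproteins encoded by Abcb1a and Abcb1b expel drugs, and Abcg2 also exports porphyrins and urate. The multidrug resistance proteins Abcc1, Abcc3 and Abcc4 export organic anions, among them glutathione conjugates and leukotriene C4 (Abcc1), glucuronides (Abcc3), and cyclic nucleotides and prostaglandins (Abcc4). In mouse the single human P-glycoprotein gene is represented by the neighbouring pair Abcb1a and Abcb1b.

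Library totals ran from 30341823 to 45557804 counts. Levels are CPM, the counts of a gene relative to the scaled total of its library, with TMM scaling, which corrects for differences in library composition. Dis3l2 was at 22.0 to 33.0 CPM in shNS and at most 14.9 CPM in shDis3l2 with doxycycline, and at 29.6 and 28.6 CPM without it. Of 9 macrophage markers 8 were at 1 CPM or more in every library, while no marker of T cells, B cells, epithelium, fibroblasts, endothelium, hepatocytes or erythroid cells exceeded 0.796 CPM in any library. Replicate 2 of shNS with doxycycline stood apart as a whole library: its log2(CPM + 1) values had a Pearson r across the 13752 genes tested, which are not independent replicates, of 0.9905 with untreated shNS but of 0.961 and 0.964 with shNS replicates 1 and 3. Its part in the patterns of Abcb1a, Abcg1 and Abcc3 was not tested beyond leaving it out, so values are given library by library, and the results that rest on it also without it. Fewer cells with a transcript and less of it per cell cannot be told apart in these bulk libraries.

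The promoters of 3 of the genes are shown: Abcb1a and Abcb1b, neighbours whose levels differed between the lines in opposite directions, and Abca1, the gene with a known LXR element near its start. Start windows of 250 bases before to 50 after the start, from RefSeq (GRCm38.p6), were matched for 5 of the 8 genes, and those of Abcg1, Abcc1 and Abcc3 were not used here. Sequences read 5′ to 3′ on the strand of the gene. In the first pair the capitals mark a GC box (GGGCGG) or a CCAAT box (CCAAT) on either strand, motifs bound by Sp1-family factors and NF-Y. For Abcb1a the window is chr5:8566841-8567140, plus strand. It lies wholly upstream of the GENCODE M21 gene (8660077 to 8748575) used for the counts, so the annotations place the first exon differently. Whether these cells use this start was not tested. For Abcb1b it is chr5:8797897-8798196, plus strand. In the last sequence the capitals mark the best match on either strand to a pair of AGGTCA half-sites separated by 4 bases, the DR4 arrangement that LXR binds. For Abca1 the window is chr4:53159846-53160145, minus strand.
Abcb1a: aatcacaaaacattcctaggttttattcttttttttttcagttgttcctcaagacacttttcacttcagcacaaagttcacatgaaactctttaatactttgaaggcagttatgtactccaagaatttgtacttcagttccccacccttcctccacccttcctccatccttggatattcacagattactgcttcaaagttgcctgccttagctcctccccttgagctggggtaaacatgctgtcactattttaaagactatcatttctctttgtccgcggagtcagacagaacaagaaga
Abcb1b: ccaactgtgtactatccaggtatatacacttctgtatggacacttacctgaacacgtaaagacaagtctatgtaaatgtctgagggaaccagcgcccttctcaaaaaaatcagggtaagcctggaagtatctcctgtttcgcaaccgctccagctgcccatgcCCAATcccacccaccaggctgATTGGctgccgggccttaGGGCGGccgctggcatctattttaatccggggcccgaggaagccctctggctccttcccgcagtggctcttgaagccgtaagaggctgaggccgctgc
Abca1: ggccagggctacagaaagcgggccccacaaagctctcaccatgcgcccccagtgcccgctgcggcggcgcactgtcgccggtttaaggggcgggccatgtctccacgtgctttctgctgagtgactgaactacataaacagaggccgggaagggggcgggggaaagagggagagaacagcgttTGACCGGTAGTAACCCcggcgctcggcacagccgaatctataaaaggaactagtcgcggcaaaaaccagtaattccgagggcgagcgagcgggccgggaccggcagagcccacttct

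The Abcb1a window held 0 GC boxes and 0 CCAAT boxes and was 40.3% G and C. That of Abcb1b held 1 GC box and 2 CCAAT boxes at 55.0% G and C. Over all 32851 start windows of that table, 35.7% held a GC box and 37.4% a CCAAT box, so both patterns are common. The marked match in Abca1 lies 67 to 52 bases before the start and differs from the motif at 3 positions. A match at least as good was found in 21.9% of all windows, and no window of the other matched genes had one. A match describes letters and shows neither binding nor a cause.

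Across the 8 genes, edgeR's quasi-likelihood test over all genes called 1 lower in shDis3l2 with doxycycline (Abcg2) and 0 higher. For comparison, 4.01% of the 13752 genes tested were called lower and 2.13% higher, at an adjusted p under 0.05. DESeq2 called 4 of the 8 lower and 1 higher, with 1104 and 644 genes in all, and limma-voom called 2 lower, with 530 in all. For Abcb1a DESeq2 gave no adjusted p. By edgeR 6 of the 8 had an unadjusted p under 0.05, as did 2864 of the 13752 genes. Since the genes were chosen with these differences known, nothing is read from the counts. The values of all 3 shDis3l2 libraries lay below all 3 shNS values for 5 genes and above them for 1, patterns that 14.6% and 13.2% of all genes tested showed. The median log2 difference of the 8 genes was -1.12, against -0.0023 over all genes. Abcg2 and Abcb1a passed the filter on low counts only through their shNS libraries.

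**Figure D1:**
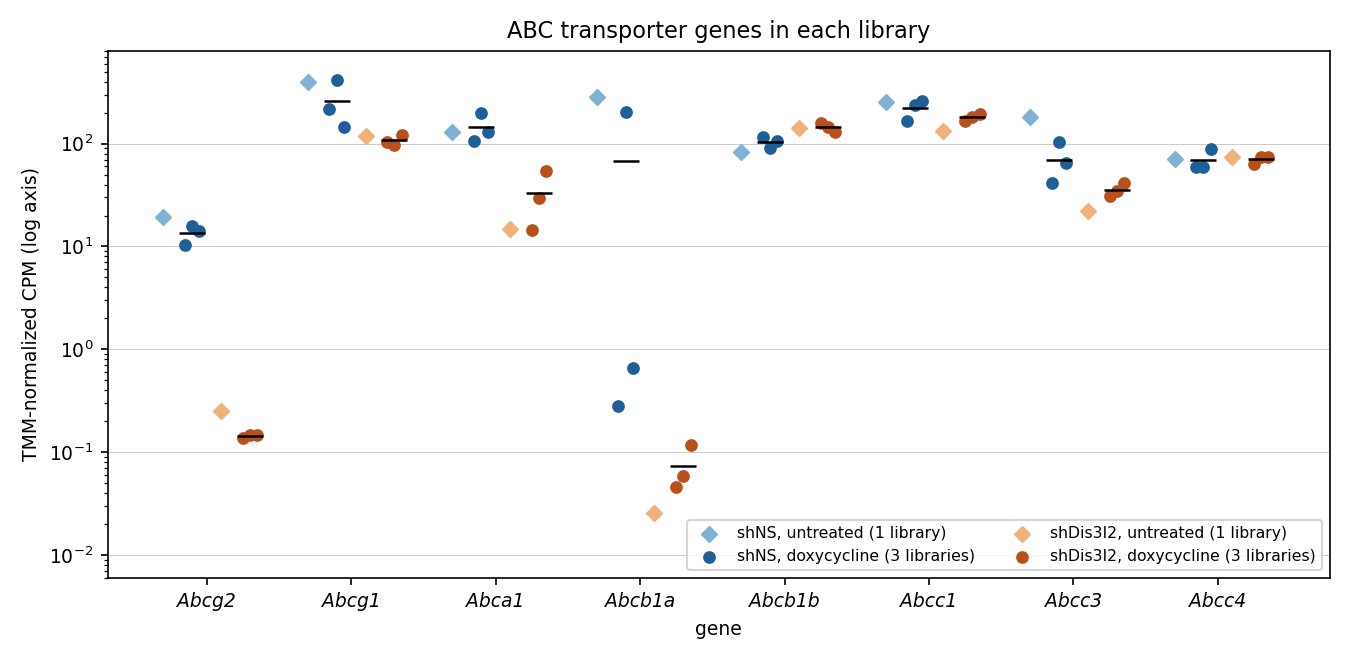
Level of the 8 transporter genes in each library, as TMM-normalized CPM on a log axis. Circles are libraries with doxycycline, with a line at the mean of 3, and diamonds are the single untreated libraries. Abcg2 is separated by line in all libraries, and Abcb1a is high only in untreated shNS (287 CPM) and shNS replicate 2 (204 CPM).

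The sterol exporters Abca1 and Abcg1 were both at lower levels in shDis3l2. Abca1 (ENSMUSG00000015243, chromosome 4, 53030787 to 53159895, minus strand) stood at 106, 197 and 129 CPM in shNS replicates 1, 2 and 3 with doxycycline and at 14.5, 29.5 and 54.7 CPM in shDis3l2. The groups did not overlap, and the highest shDis3l2 library was 3.78 times the lowest. The means were 144 ± 47.6 and 32.9 ± 20.3 CPM (SD, n = 3), 22.8% of the shNS level, with a log2 difference of -2.13 (SE 0.50). In the untreated libraries Abca1 was at 130 and 14.9 CPM, 8.73-fold higher in shNS (95% counting interval 8.01 to 9.53). Its transcript was the one whose shDis3l2 libraries were least alike, while untreated shDis3l2 lay beside the lowest of them.

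Abcg1, which passes cholesterol to HDL, showed its spread in the other line. The gene (ENSMUSG00000024030, chromosome 17, 31057675 to 31117988, plus strand) was at 217, 419 and 144 CPM in shNS with doxycycline and at 105, 96.9 and 121 CPM in shDis3l2. Replicate 2 of shNS was 2.91 times replicate 3, and it stood close to untreated shNS at 395 CPM. All shNS values were above all shDis3l2 values, with means of 260.0 ± 142 and 107 ± 12.1 CPM (SD, n = 3) and a log2 difference of -1.27 (SE 0.38). Without shNS replicate 2 that value was -0.75, and edgeR's call was made only without shNS replicate 3 (-1.57). Untreated shDis3l2 was at 119 CPM, within the range of the treated libraries of its line.

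Among the multidrug transporters, Abcg2 separated the lines in every library. The gene (ENSMUSG00000029802) lies on chromosome 6, 58584523 to 58695676, plus strand, GRCm38. Its level was 10.3, 16.0 and 14.2 CPM in shNS replicates 1, 2 and 3 with doxycycline and 0.137, 0.146 and 0.148 CPM in the 3 shDis3l2 libraries. Every shNS library was high and every shDis3l2 library stood near the limit of detection, with 5 or 6 counts each. The mean fell from 13.5 ± 2.89 to 0.144 ± 0.00564 CPM (SD, n = 3 in each group), 93.9-fold lower, with a log2 difference of -6.52 (SE 0.30). Untreated shNS stood at 19.4 CPM against 0.254 CPM, or 10 counts, in untreated shDis3l2, a 76.2-fold gap (95% counting interval 41.2 to 160-fold, counting error only). The gap was also present in this untreated pair, in which Dis3l2 was at 29.6 and 28.6 CPM.

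Abcb1a and Abcb1b lie 49.6 kb apart on chromosome 5 and differed between the lines in opposite directions. Abcb1a (ENSMUSG00000040584) was at 0.283, 204 and 0.662 CPM in shNS replicates 1, 2 and 3 with doxycycline, at 287 CPM in untreated shNS, and at 0.0254 to 0.118 CPM in the 4 shDis3l2 libraries. It was therefore abundant in 2 of the 4 shNS libraries and nearly absent from the other 2. Counts ran from 6981 in replicate 2 to 9 and 23 in replicates 1 and 3, and from 1 to 4 in shDis3l2. The shNS mean of 68.4 ± 118 CPM (SD, n = 3) has an SD above the mean and describes no single library. The log2 difference between the lines was -9.83 (SE 3.28), but replicates 1 and 3 of shNS alone were only 6.38 times the shDis3l2 mean, and without replicate 2, or without replicate 3, the gene did not pass the filter on low counts.

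Abcb1b (ENSMUSG00000028970, 8798147 to 8866315, plus strand) was present everywhere and was the only member whose shDis3l2 libraries were all above the shNS libraries. It was at 116, 90.1 and 107 CPM in shNS with doxycycline and at 158, 144 and 130 CPM in shDis3l2. The means were 104 ± 12.9 and 144 ± 13.9 CPM (SD, n = 3), with a log2 difference of 0.47 (SE 0.15). The untreated libraries were at 82.5 CPM in shNS and 141 CPM in shDis3l2. The 2 lowest Abcb1b values of all 8 libraries were in the 2 libraries that expressed Abcb1a.

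Taking both P-glycoprotein genes as a sum, the level was 294 CPM in shNS replicate 2 and 369 CPM in untreated shNS, against 107 to 158 CPM in the other 6 libraries. Abcb1a gave 69.4% and 77.7% of that sum in the former pair and at most 0.617% elsewhere. The transcripts of the pair share 5.54% of the 150-base words of Abcb1a (the read length) and 16.3% of its 50-base words, and 3.63% and 11.1% of those of Abcb1b. Reads from shared stretches are divided by estimation, and the part of such reads in the low Abcb1a counts was not tested. No other 2 of the 8 genes shared a 50-base word.

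The adjoining Abcb4, which encodes a phosphatidylcholine flippase, lies 27.4 kb beyond Abcb1b and shared the pattern of Abcb1a in part. It was named after its values were seen, and the other neighbours of the pair are not described here. Sequence shared by Abcb4 with Abcb1a or Abcb1b was not examined. Abcb4 was at 22.7, 198 and 61.5 CPM in shNS replicates 1, 2 and 3 with doxycycline, at 170 CPM in untreated shNS, and at 31.3 to 54.5 CPM in shDis3l2. Across the cluster the outer genes Abcb1a and Abcb4 were high, and the middle gene Abcb1b at its lowest, in the same 2 shNS libraries. The gap in Abcb1b was small, with 90.1 and 82.5 CPM there against 116 and 107 CPM in shNS replicates 1 and 3. The part of reads shared with Abcb1a in that gap was not tested. Nr1i3, the nuclear receptor CAR that is known to induce drug transporter genes, was named after its values were seen. It was at 281 CPM in shNS replicate 2 and 381 CPM in untreated shNS, with 0 counts in the other 6 libraries. A link between Nr1i3 and these transporter genes was not tested. Other genes, among them Gfi1, were also high in the same 2 libraries.

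**Figure D2:**
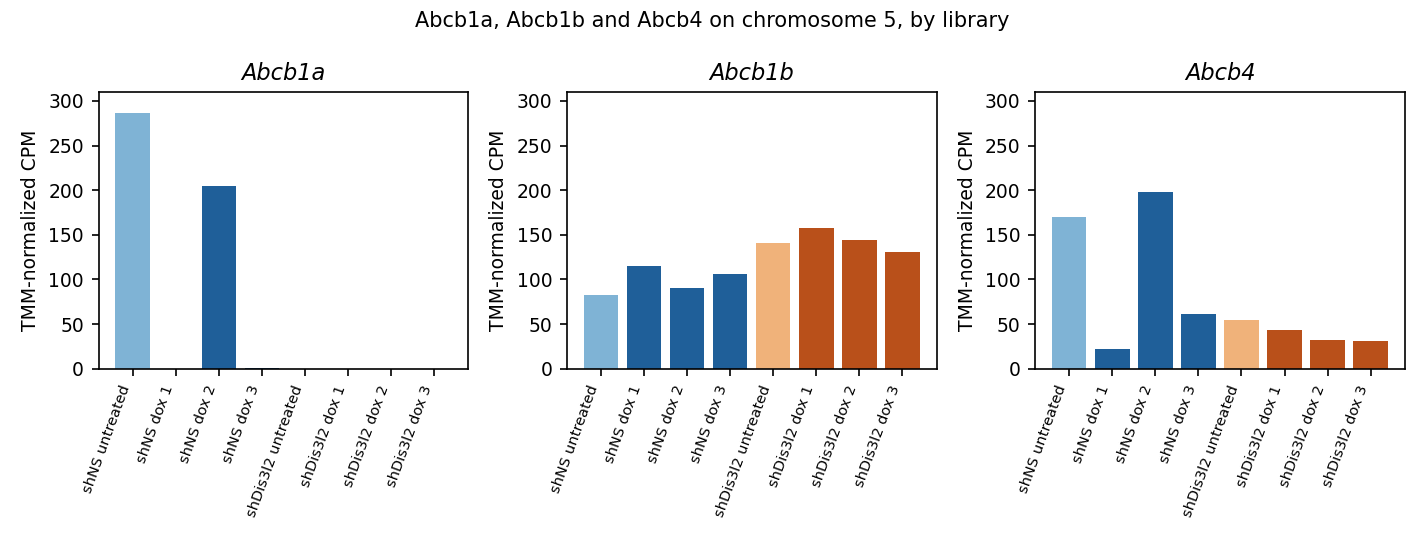
TMM-normalized CPM of Abcb1a, Abcb1b and Abcb4 in each of the 8 libraries, 1 bar per library, on the same linear axis. Abcb1a and Abcb4 are highest in untreated shNS and shNS replicate 2, the 2 libraries in which Abcb1b is lowest (82.5 and 90.1 CPM).

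Among the 3 organic anion exporters, Abcc3 differed most between the lines, and Abcc1 and Abcc4 less. Abcc3 (ENSMUSG00000020865, chromosome 11, 94343295 to 94392997, minus strand), the exporter of glucuronides, was at 41.2, 103 and 65.5 CPM in shNS with doxycycline and at 31.3, 35.0 and 41.1 CPM in shDis3l2. The lowest shNS and the highest shDis3l2 library nearly met. The means were 69.99 ± 31.3 and 35.8 ± 4.98 CPM (SD, n = 3), with a log2 difference of -0.97 (SE 0.32), or -0.57 without shNS replicate 2. Without doxycycline the gap was wider, with 180 CPM in shNS and 22.2 CPM in shDis3l2, 8.13-fold (95% counting interval 7.57 to 8.73). edgeR's call was made only when shNS replicate 1 was left out (log2 difference -1.21).

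Abcc1 (ENSMUSG00000023088, chromosome 16, 14361558 to 14475737, plus strand), which exports leukotriene C4 and glutathione conjugates, was at 168, 237 and 258 CPM in shNS and 167, 183 and 194 CPM in shDis3l2 with doxycycline. The groups overlapped through shNS replicate 1. Their means were 221 ± 47.2 and 182 ± 13.6 CPM (SD, n = 3), with a log2 difference of -0.28 (SE 0.18). The untreated libraries were at 256 and 133 CPM, a 1.92-fold gap (95% counting interval 1.85 to 1.98).

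Abcc4 (ENSMUSG00000032849, chromosome 14, 118482692 to 118706219, minus strand), the exporter of cyclic nucleotides and prostaglandins, was at 58.8, 59.9 and 88.8 CPM in shNS and 63.3, 73.4 and 74.8 CPM in shDis3l2 with doxycycline. The shDis3l2 libraries lay inside the shNS range. The log2 difference was 0.03 (SE 0.19) from means of 69.2 ± 17.0 and 70.5 ± 6.26 CPM (SD, n = 3), and its sign changed when a library was left out. Untreated levels were 70.5 and 73.5 CPM, with a counting interval of the shDis3l2 to shNS ratio from 0.988 to 1.10.

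**Figure D3:**
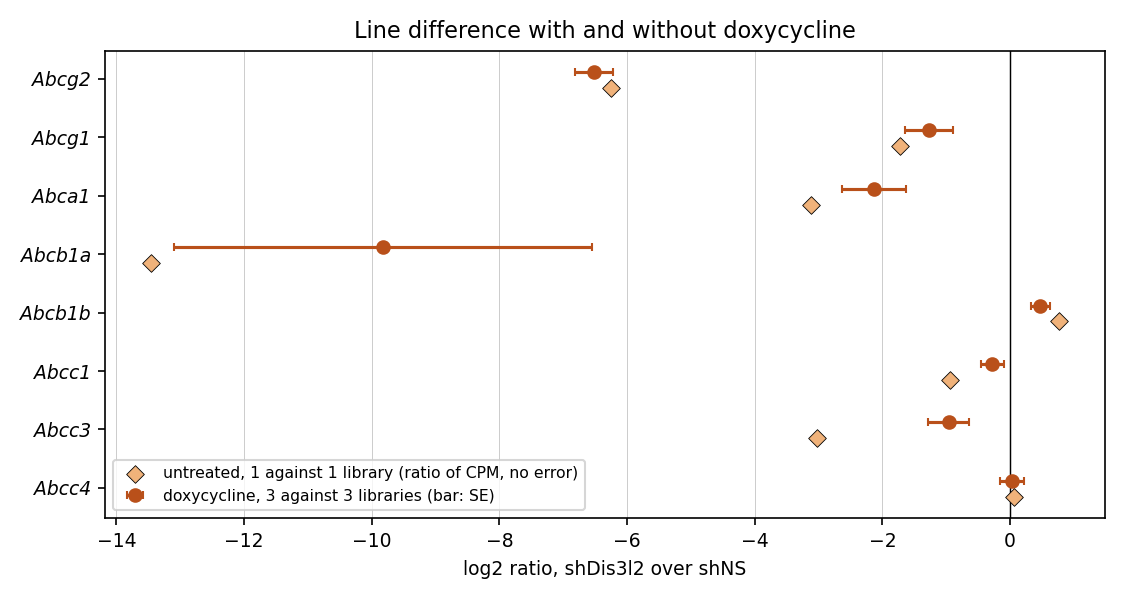
Log2 ratio of shDis3l2 to shNS for each gene with doxycycline (circles, bars are 1 SE, 3 libraries against 3) and without it (diamonds, 1 library against 1, no error). Both sets of points fall on the same side of 0 for all 8 genes, and Abcb1a has the widest bar (SE 3.28).

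Levels of different genes are compared per kb of merged exon length. That length exceeds the longest transcript, most for Abcc1 (15092 against 6792 bases) and Abcb1b (7990 against 4306). The order below therefore depends on this divisor, and an order by transcript length was not made. In shNS with doxycycline Abcg1 led at 35.6 ± 19.5 CPM per kb (SD, n = 3). Abcc1 (14.6 ± 3.12), Abca1 (13.9 ± 4.59), Abcb1b (13.02 ± 1.61), Abcb1a (12.5 ± 21.5), Abcc3 (12.3 ± 5.49) and Abcc4 (10.8 ± 2.66) followed on the same scale, with neighbours in this order within 1 SD of each other. By its mean Abcg2 was last, at 1.65 ± 0.354 CPM per kb. The place of Abcb1a rests on shNS replicate 2 (37.3 CPM per kb). In replicates 1 and 3 Abcb1a lay below Abcg2, at 0.0517 and 0.121 against 1.27 and 1.74 CPM per kb. In shDis3l2 Abcb1b led at 18.0 ± 1.74 CPM per kb, ahead of Abcg1 (14.7 ± 1.66), which was the higher of the pair in shDis3l2 replicate 3 (16.5 against 16.3). Abcc1 (12.03 ± 0.902) and Abcc4 (11.03 ± 0.979) came next and overlapped within 1 SD, and Abcc3 (6.28 ± 0.874) and Abca1 (3.17 ± 1.96) lay below them. Abcg2 and Abcb1a were last, at 0.0176 and 0.0135 CPM per kb. The CPM of the 8 genes together summed to 717, 1326 and 807 in shNS replicates 1, 2 and 3 and to 539 to 616 in shDis3l2 with doxycycline.

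Doxycycline effects were then tested within each line over all 8 libraries and 15250 genes, each untreated library being assumed to vary like the others. edgeR called 0% of all genes in shNS, 0% in shDis3l2 and 0% for the difference between the lines. At an unadjusted p under 0.05 there were 646, 504 and 577 genes, and DESeq2 called 72, 64 and 34. None of the 8 transporters was called by either tool in these comparisons, although DESeq2 gave no adjusted p for Abcb1a. Abcc3 had the smallest p in shNS, with a log2 difference of -1.37 (SE 0.42, unadjusted p = 0.0149, edgeR, BH-adjusted p = 0.99), all 3 treated libraries being below the untreated one. In shDis3l2 its 3 treated libraries were all above the untreated one, with a log2 difference of 0.69 (SE 0.47, edgeR, BH-adjusted p = 1). The difference between the lines was 2.05 (SE 0.65, unadjusted p = 0.0165, edgeR, BH-adjusted p = 1).

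None of the other members had an unadjusted p under 0.05 for the drug in either line. Abca1 was at 1.14 (SE 0.75) in shDis3l2, where the treated libraries ran from 14.5 to 54.7 CPM beside an untreated 14.9 CPM, and at 0.15 (SE 0.70) in shNS. Abcg2 had log2 differences of -0.52 (SE 0.29) in shNS and -0.81 (SE 0.41) in shDis3l2, the latter from 5 to 10 counts per library. Abcg1 was at -0.60 (SE 0.51) and -0.15 (SE 0.52), Abcc1 at -0.21 (SE 0.26) and 0.45 (SE 0.27), Abcb1b at 0.33 (SE 0.21) and 0.03 (SE 0.21), and Abcc4 at -0.03 (SE 0.27) and -0.06 (SE 0.27), in shNS and shDis3l2 on the log2 scale. Abcb1a was at -2.07 (SE 2.65) in shNS, and no fold is given in shDis3l2, where it stayed at about the detection limit of 3 counts.

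Leaving out shNS replicate 2 changed this comparison in the control line. Doxycycline was then called for 544 genes. Abcc3 was called, being lower by 1.78 on the log2 scale in replicates 1 and 3 than in untreated shNS. That outcome depends on leaving out its highest treated library, at 103 CPM. Abcb1a, with 9 and 23 counts there against 10446 in untreated shNS, was called too, an outcome set by leaving out the treated library with 6981 counts. Leaving out replicate 1 or 3 instead gave 0 called members. Without replicate 2 the difference between the lines was also called for Abcb1a, again without its treated library of 6981 counts.

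**Figure D4:**
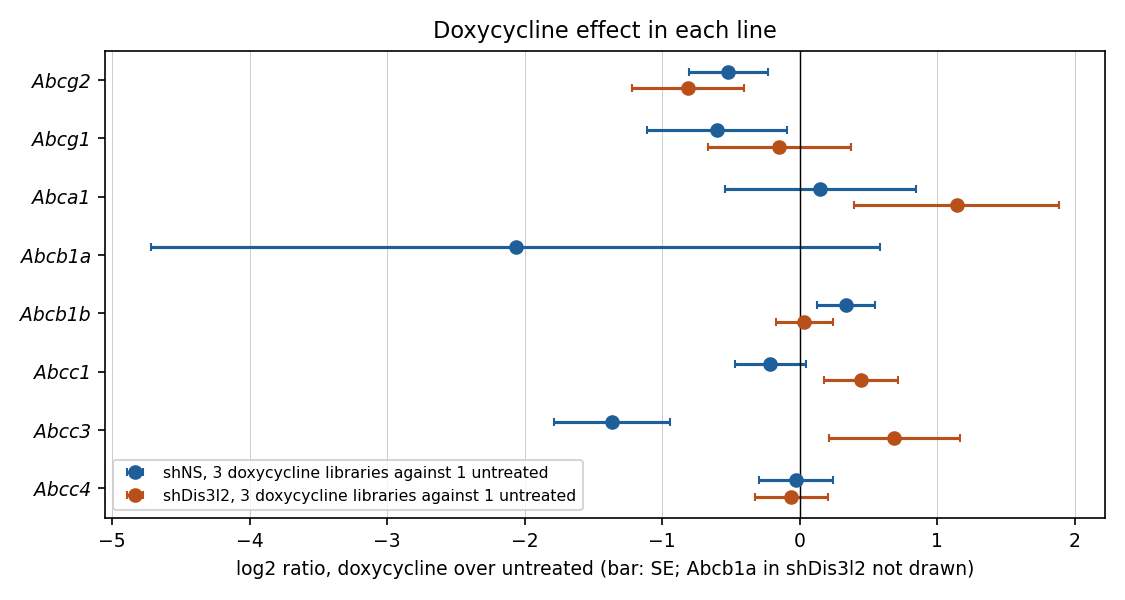
Log2 ratio of doxycycline over untreated in shNS (blue) and shDis3l2 (orange), 3 libraries against 1, with bars of 1 SE. Abcc3 lies on opposite sides of 0 in the lines (-1.37 and 0.69), and the bar of Abcb1a in shNS is the longest (SE 2.65).

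The rest of the ABC family was examined as a list of 45 genes. Of these 23 passed the filter on low counts, 8 had no count in any library and 21 stayed under 1 CPM in every library. edgeR called 2 lower (Abca5 and Abcc5) and 0 higher in shDis3l2 with doxycycline, with 7 at an unadjusted p under 0.05, and DESeq2 called 4 lower and 1 higher. The median log2 difference was -0.06. Of all 13752 genes tested, 4.01% were called lower, 2.13% higher, and 2864 had an unadjusted p under 0.05. Abca5, a transporter of endolysosomal membranes, fell from 3.63 ± 0.625 to 0.140 ± 0.158 CPM (SD, n = 3; log2 difference -4.69, edgeR, BH-adjusted p = 0.0112). With 3, 11 and 1 counts in the shDis3l2 libraries, Abca5 passed the filter on low counts only through its shNS libraries. Its adjusted p is therefore a description. Abcc5, an exporter of cyclic nucleotides, fell from 114 ± 87.8 to 14.5 ± 4.00 CPM (SD, n = 3; -2.97, edgeR, BH-adjusted p = 0.0485), and like Abcb1a it was highest in shNS replicate 2 (211 CPM) and untreated shNS (213 CPM). The call of Abca5 was lost without shDis3l2 replicate 1 (edgeR, BH-adjusted p = 0.0610), and that of Abcc5 without shNS replicate 1 or any shDis3l2 replicate (up to 0.215). Without shNS replicate 2 the log2 difference of Abcc5 was -2.16. In the untreated pair Abca5 was at 3.16 CPM in shNS and 0.432 CPM in shDis3l2, and Abcc5 at 213 and 14.7 CPM.

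**Figure D5:**
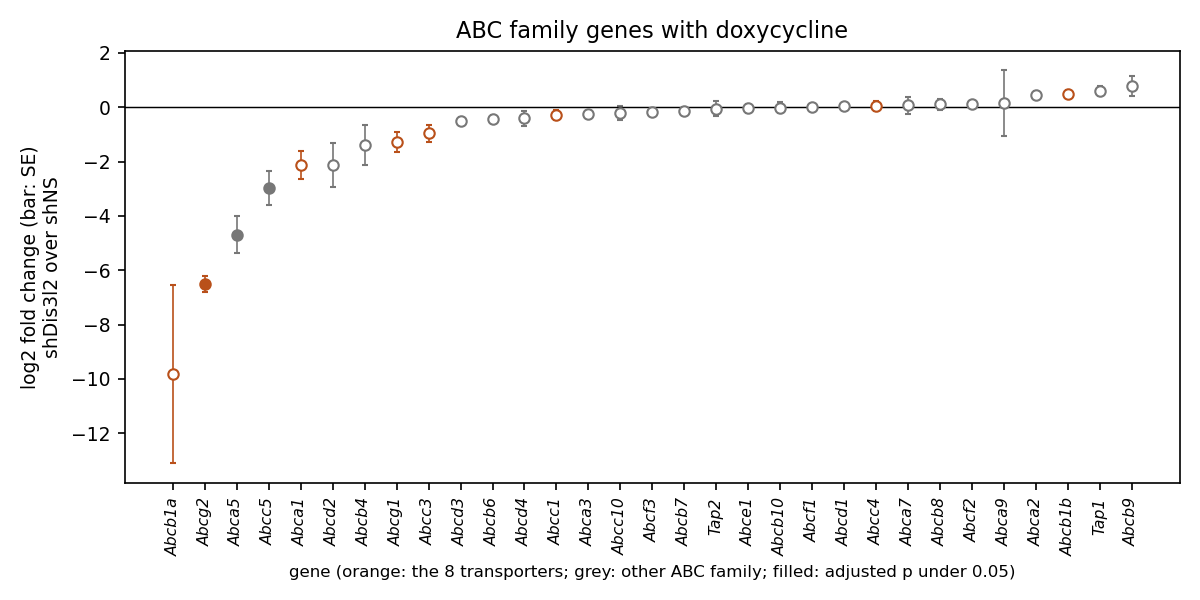
Log2 fold change of shDis3l2 over shNS with doxycycline for the 8 transporters (orange) and the 23 other ABC family genes tested (grey), in order, with bars of 1 SE. Filled points had an adjusted p under 0.05, namely Abcg2, Abca5 and Abcc5, and most of the family lies within 1 log2 unit of 0.

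Genes that act with these transporters came from lists drawn up by function, with earlier results of these data known. Adjusted p values of listed genes are therefore a description. In the lists, the other ABC genes and the neighbours, fell and rose mean lower and higher in shDis3l2 than in shNS with doxycycline. For comparison, of all 13752 genes tested 4.01% were called lower, 2.13% higher, and 2864 had an unadjusted p under 0.05. In the list of LXR and cholesterol efflux genes 31 of 37 were tested, and 2 fell and 0 rose by edgeR (8 at an unadjusted p under 0.05, 6 lower by DESeq2), with a median of -0.19. The 2 that fell have opposite activities on cholesteryl ester, and nothing is read from their number. Nceh1, a cholesteryl ester hydrolase, fell from 173 ± 38.7 to 39.3 ± 12.5 CPM (SD, n = 3; log2 difference -2.14, edgeR, BH-adjusted p = 0.0076), and Soat1, which esterifies cholesterol, from 414 ± 36.9 to 232 ± 15.4 CPM (-0.83, edgeR, BH-adjusted p = 0.0160). The call of Soat1 was lost without shDis3l2 replicate 2 or 3 (edgeR, BH-adjusted p up to 0.110). Without doxycycline Nceh1 was at 116 CPM in shNS and 30.55 CPM in shDis3l2, and Soat1 at 311 and 212 CPM. The LXR genes themselves, named after their values were seen, were at 42.3 ± 1.19 and 41.4 ± 8.62 CPM (Nr1h2) and at 5.54 ± 2.28 and 4.12 ± 0.326 CPM (Nr1h3) in shNS and shDis3l2 (SD, n = 3), with neither called by edgeR (adjusted p = 0.950 and 0.513).

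Haem and porphyrin genes, whose products handle substrates of Abcg2, gave 3 falls and 0 rises by edgeR among 17 tested of 18 (median -0.29, 8 at an unadjusted p under 0.05, 3 lower by DESeq2). Hmox1, the enzyme that breaks down haem, fell by 2.78 on the log2 scale, the lysosomal haem carrier Slc48a1 by 1.63 and the plasma membrane haem exporter Flvcr1 by 0.89 (edgeR, BH-adjusted p = 0.0484, 0.0458 and 0.0332). Hmox1 was at 80.9 CPM in shNS replicate 1 against 407 and 362 CPM in replicates 2 and 3. Untreated shNS and shDis3l2 were at 424 and 29.7 CPM for Hmox1, 118 and 18.15 CPM for Slc48a1, and 57.0 and 31.9 CPM for Flvcr1. All 3 calls were lost in each fit that left out a library other than shNS replicate 1 (edgeR, BH-adjusted p up to 0.214). In the list for glutathione and leukotriene C4, substrates of Abcc1, 1 of 15 tested (22 listed) fell and 0 rose by edgeR, with a median of -0.38, 5 at an unadjusted p under 0.05 and 3 lower by DESeq2. It was Slc7a11, the cystine importer that feeds glutathione synthesis. Its level fell from 61.1 ± 2.86 to 19.3 ± 7.40 CPM (SD, n = 3, log2 difference -1.66, edgeR, BH-adjusted p = 0.0212). The call was lost without shDis3l2 replicate 1 or 3 (edgeR, BH-adjusted p up to 0.0714). In untreated shNS and shDis3l2 Slc7a11 was at 76.6 and 15.2 CPM.

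Prostaglandin and cyclic nucleotide genes, which handle substrates of Abcc4 and Abcc1, gave 3 rises and 1 fall among 20 tested of 24 by edgeR (median 0.10, 9 at an unadjusted p under 0.05), and DESeq2 called 3 higher and 3 lower. Hpgd, which inactivates prostaglandins, had 1 count in the 3 shNS libraries and stood at 236, 110.0 and 41.0 CPM in shDis3l2. It passed the filter on low counts only through its shDis3l2 libraries. Without doxycycline it had 0 counts in shNS and stood at 198 CPM in shDis3l2. The sensor Cgas rose by 1.11 and its adaptor Tmem173 (STING) by 0.57 on the log2 scale (edgeR, BH-adjusted p = 0.0107 and 0.0466), and the adenylyl cyclase Adcy9 fell by 1.31 (edgeR, BH-adjusted p = 0.00504). The call of Cgas was lost without shDis3l2 replicate 2 or 3 (edgeR, BH-adjusted p up to 0.0607). That of Tmem173 was lost in each fit that left out a library other than shNS replicate 1 (up to 0.208). Untreated shNS and shDis3l2 were at 59.6 and 85.7 CPM for Cgas, 32.1 and 49.9 CPM for Tmem173, and 12.9 and 8.36 CPM for Adcy9. Of 13 tested regulators of drug transporter genes (19 listed) and 7 tested organic anion uptake genes (15 listed), edgeR called 0, with 2 and 1 at an unadjusted p under 0.05 and 1 and 0 called by DESeq2. The smallest p were those of Tiparp, a target of the aryl hydrocarbon receptor (log2 difference -0.75, edgeR, BH-adjusted p = 0.102), and of the uptake carrier Slco4a1 (-0.51, edgeR, BH-adjusted p = 0.228). Without doxycycline Tiparp went the other way, at 24.1 CPM in shNS and 34.6 CPM in shDis3l2, while Slco4a1 was at 508 and 417 CPM.

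Genes beside the members on the chromosome were also compared, taking 3 protein-coding genes on each side. Of 42 such genes 18 were tested, 1 rose and 1 fell by edgeR, beside 2.13% and 4.01% of all genes tested. Umodl1 lies 47.0 kb before Abcg1 and was at 145, 133 and 82.8 CPM in shDis3l2 with doxycycline against 1 count in the 3 shNS libraries, the direction opposite to Abcg1. Umodl1 passed the filter on low counts only through its shDis3l2 libraries. Without doxycycline it had 0 counts in shNS and stood at 85.5 CPM in shDis3l2. Fsd1l lies 472 kb from Abca1 and fell from 10.96 ± 0.809 to 1.45 ± 0.803 CPM (SD, n = 3, log2 difference -2.92, edgeR, BH-adjusted p = 0.0114). The call was lost without shDis3l2 replicate 2 (edgeR, BH-adjusted p = 0.0715). In untreated shNS and shDis3l2 Fsd1l was at 12.2 and 2.49 CPM. The nearer neighbour of Abca1, Nipsnap3b at 8.73 kb, was named after its values were seen and stood at a log2 difference of -0.08 (edgeR, BH-adjusted p = 0.815).

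For each transporter the genes with the most similar levels over the 8 libraries were listed, among 12150 genes, by Pearson's r of log2(CPM + 1). These r values describe 8 libraries that share line and replicate structure, so they carry no p. Abcb1a was matched most closely by Gfi1, a transcriptional repressor of myeloid genes (r = 0.9998), which was at 37.9 CPM in shNS replicate 2 and 47.4 CPM in untreated shNS and at most 0.374 CPM elsewhere, and then by Gm26714 and Greb1. Abcg2 was matched by Rgs18, a regulator of G-protein signalling (0.998), Bicd1 (0.994) and Tsku (0.993). Rgs18 had 0 counts in all 4 shDis3l2 libraries. Abcg1 went with the telomerase subunit Tert (0.993), Bbs7 (0.992) and Ttc3 (0.988), and Abca1 with Wdr60 (0.987) and the secretory coat genes Copb2 (0.975) and Sec23a (0.974). Abcb1b was closest to Sh2d3c (0.994), Eps8 (0.987) and Asrgl1 (0.985), all higher in shDis3l2. The nearest to Abcc3 were Pde2a (0.989), B4galt6 (0.979) and Scfd1 (0.976), to Abcc1 Calu (0.982), Gk (0.970) and Stab1 (0.962), and to Abcc4 Dgcr8 (0.989), Map2k4 (0.947) and Wee1 (0.945). No gene was among the 3 closest of more than 1 transporter.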

How the data were processed

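Total RNA of 8 RAW264.7 libraries was made into stranded, ribosomal RNA-depleted libraries and sequenced in 150 nt pairs (per the labels' protocols). Reads were handled with cutadapt, STAR 2.7 and RSEM on GRCm38 or mm10, per the submitters' processing notes, which state neither annotation release nor strand setting. What the authors deposited is a single table of unnormalized expected counts by gene, whose columns carry the library names. All 55450 identifiers matched GENCODE M21. RSEM divides reads shared by similar genes, so values of paralogs are estimates.

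Counts were rounded (4.68 to 5.24% of values in a library changed), filtered with filterByExpr (minimum count 10), scaled by TMM and tested two-sided with edgeR's robust quasi-likelihood test, with Benjamini-Hochberg adjustment over all genes tested, calls being made under 0.05. Tools were edgeR 4.0.16 in R 4.3.3. The fit was tested on simulated data. CPM used the scaling of all 8 libraries. The lines under doxycycline were compared in the 6 treated libraries, and drug effects in all 8 as 4 groups. Untreated libraries were compared by their ratio with a 95% exact binomial interval, which covers counting error only. The comparison of the lines was repeated with other scaling (size factors of DESeq2, or totals only), no filter or 1 CPM in 3 libraries. It was also repeated with DESeq2 1.42.0, limma-voom (limma 3.58.1), a replicate block, a fit over all 8 libraries, and each treated library left out. Drug effects were repeated only with size factors of DESeq2, 1 CPM in 3 libraries, DESeq2, and each treated library of that line left out. Their difference was repeated only with size factors of DESeq2, DESeq2, and each treated library left out.

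The members and lists were chosen with earlier results of these data known. Named are the 8 members, from each list at most 4 genes past 0.05, smallest adjusted p first (where none passed, the 1 of smallest p), called neighbours, and for each member the 3 genes most like it. Abcb4, Nr1i3, Nr1h2, Nr1h3 and Nipsnap3b fall outside this rule and were named after their values were seen. Same-numbered replicates of the lines deviated together with correlations of -0.125, 0.019 and -0.0222, so the numbers were not taken to pair them.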

Additional observations from a re-analysis of the deposited data

Results flagged for a closer look

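Abcc3 was singled out because its treated libraries moved in opposite directions in the lines. All 3 shNS libraries with doxycycline (41.2, 103 and 65.5 CPM) were below the untreated shNS library (180 CPM), and all 3 shDis3l2 libraries with doxycycline (31.3, 35.0 and 41.1 CPM) were above the untreated shDis3l2 library (22.2 CPM). The difference between the drug effects was 2.05 on the log2 scale and was not past the threshold (unadjusted p = 0.0165, edgeR, BH-adjusted p = 1 over all 15250 genes). It rests on 1 untreated library per line.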

How the results depend on the processing

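Abcg2 had log2 differences from -6.66 to -6.38 in the 14 alternatives of the comparison of the lines, a description only, since it was chosen with that comparison known. Abcg1, Abca1, Abcb1b, Abcc1 and Abcc3 kept their direction in all 14, and Abcb1a in the 11 in which it could be fitted. DESeq2 gave no adjusted p for Abcb1a in any comparison. Abcb1a ranged from -10.39 (without shNS replicate 1) to -5.45 (limma-voom). DESeq2 called more genes (1104 lower, 644 higher), 5 of the 8 transporters, 5 other ABC family genes and 19 genes of the other lists, against 552, 293, 1, 2 and 10. Limma-voom called 2 of the 8 (Abcg2 and Abca1). The replicate block left 289 lower and 132 higher calls, 6 in the lists and 1 of the 8 (Abcg2). Other ABC family calls were 1 with DESeq2's size factors, without a filter, with limma-voom, with the replicate block and with all 8 libraries in the fit. Leaving out 1 library gave 129 to 653 lower calls and 74 to 504 higher calls (fewest without shDis3l2 replicate 2, most without shNS replicate 1), 1 or 2 of the 8 transporters, 0 to 4 other ABC family genes, 3 to 14 genes of the lists and 1 or 2 neighbours. DESeq2 called 72, 64 and 34 genes for the drug effect in shNS, in shDis3l2 and for their difference, against 0. Leaving out a library gave 0 to 544 calls in shNS with 0 to 2 of the 8 transporters, and 0 to 121 for the difference with 0 or 1 (Abcb1a), the highest each time without shNS replicate 2. The cause was not tested. Values near 0 changed sign when a library was left out: Abcc4 between the lines (-0.062 to 0.24), and for the drug effect Abcc4 (-0.26 to 0.077), Abca1 (-0.17 to 0.33) and Dis3l2 (-0.23 to 0.044) in shNS, Abcb1b (-0.034 to 0.10) and Abcc4 (-0.10 to 0.016) in shDis3l2, and Abcc4 for the difference (-0.14 to 0.20). In the comparison of the lines Abcb1a could not be fitted without shNS replicate 2 or 3 or under the filter of 1 CPM in 3 libraries. With 1 untreated library per line, drug effects have little precision.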
